A study of Mus musculus with 4 samples.

Results

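The adenosine and purinergic pathway genes examined here are 7 genes that make, sense or remove extracellular ATP and adenosine around T cells: Entpd1, Nt5e, Adora2a, Ada, Adk, Dpp4 and P2rx7. They were taken by symbol from all non-control probes of the array, which gave 13 probes of 7 genes among 41169 probes of 27593 genes. The series, from its title, concerns the part of Eos, a zinc-finger protein encoded by Ikzf4, in gene silencing by Foxp3, the transcription factor of regulatory T cells (Treg). RNA of 4 samples was hybridised to 4 single-colour Agilent mouse arrays, 1 array per group.

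All 4 groups were CD4+ T cells from spleen and lymph nodes of Balb/C mice, with no engineered allele named. The group called si-Eos was CD4+CD25+ natural Treg that carried a lentiviral short hairpin RNA directed at Eos. The group called si-RL was the same kind of cell with a hairpin directed at Renilla luciferase, a gene that mouse cells lack. Both hairpin groups spent 60 h in medium containing human IL-2 and were then sorted on GFP. The group called Treg was CD4+CD25+ natural Treg without transduction, and the group called naive was CD4+CD25- T cells with high CD62L, also without transduction. Transduction, culture and the GFP sort were therefore shared by both hairpin groups. The others were untransfected, and whether they spent time in culture is not given. The promoter that drives the hairpin, the number of hairpins and animals, and the age and sex of the animals are not given in the sources used here. With 1 array per group the spread between replicates is unknown. No test was made, no p-value is given, and each difference compares 2 libraries.

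Extracellular ATP signals cell damage and opens the channel P2RX7, to which Treg are known to be sensitive. The ectoenzymes CD39 (Entpd1) and CD73 (Nt5e) act in sequence: CD39 removes phosphates from ATP and ADP to leave AMP, and CD73 turns AMP into adenosine. Adenosine signals through a receptor encoded by Adora2a, which raises cAMP in T cells, and this route is one of the known suppressive mechanisms of Treg. Adenosine is removed by deamination to inosine, catalysed by adenosine deaminase (Ada), or by phosphorylation to AMP, catalysed by adenosine kinase (Adk). CD26 (Dpp4) is a surface dipeptidyl peptidase that in humans also binds adenosine deaminase and holds it at the cell surface.

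A value called scaled signal is the background-subtracted spot intensity divided by its array's 75th percentile, so 1 stands for that percentile. It compares 1 probe across arrays and not 1 probe with another. Differences are given on the log2 scale, with ± for the scanner software's error of both spots combined, which is technical only. Of all probes, between 64.0% and 68.3% were well above background on each array, and the 75th percentile of the signal lay between 262 and 392 units. For all 7 genes the brightest probe was well above background on all 4 arrays. Of the other probes, the second Entpd1 probe was not well above background in si-RL, and the rest were well above it on every array.

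The targeted gene went against the hairpin labels. Ikzf4 had a scaled signal of 0.779 in si-Eos, 0.409 in si-RL, 0.926 in Treg and 0.635 in naive T cells on its brightest probe. It was higher in si-Eos than in si-RL on that probe (0.93 ± 0.21) and on its other probes (1.96 ± 0.21 and 1.19 ± 0.22). Foxp3 had a scaled signal of 8.26 in si-Eos, 0.420 in si-RL, 4.54 in Treg and 0.213 in naive T cells. The hairpin samples are therefore called by their labels, as the si-Eos-labelled and the si-RL-labelled library. Each direction between them holds for the labels as given and would turn if they were exchanged.

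Cell type markers were checked in the same way. All 6 T cell markers (Cd3d, Cd3e, Cd3g, Cd4, Cd5 and Lck) were well above background on every array, but not level. Against Treg, 2 were at least 2-fold lower in the si-RL-labelled library and none was higher (median -0.97). These were Cd5 (-1.76 ± 0.20) and Cd3e (-1.26 ± 0.20, and -0.70 on its second probe). Between the hairpin libraries, Cd5 alone was 2-fold apart, higher in the si-Eos-labelled library (1.65 ± 0.20). Of 6 Treg markers, 4 were at least 2-fold lower in the si-RL-labelled library than in Treg, where 8.22% of all genes were. The others, Il2ra (0.46 ± 0.20) and Tnfrsf18 (0.42 ± 0.20), were higher there than in Treg by less than 2-fold. The summed scaled signal of 6 naive T cell markers was 50.9 in the si-Eos-labelled library, 145 in the si-RL-labelled library, 64.5 in Treg and 186 in naive T cells, with all 6 well above background on every array. The 4 plasma cell markers summed to 6.88 in the si-Eos-labelled library, 1.66 in the si-RL-labelled library, 24.95 in Treg and 24.86 in naive T cells. Jchain, an immunoglobulin chain gene, carried most of that in the untransduced samples, at 0.0209 and not well above background in the si-Eos-labelled library, 0.0701 in the si-RL-labelled library, 22.5 in Treg and 23.1 in naive T cells. The summed scaled signal of 9 B cell markers was 2.24 in the si-Eos-labelled library, 1.28 in the si-RL-labelled library, 7.35 in Treg and 4.09 in naive T cells, with 6 or 7 of the 9 well above background on each array. Cd74 carried much of it, at 0.834, 0.143, 4.23 and 2.60 in the same order. The sum of 9 myeloid markers ran between 1.21 and 1.70. For 6 CD8 T and NK cell markers the sum was 53.9 in the si-Eos-labelled library, 3.98 in the si-RL-labelled library, 8.70 in Treg and 6.51 in naive T cells, and Nkg7, a cytotoxic granule gene, made up 50.4 of the first. In these bulk samples, fewer cells of a type and less RNA per cell cannot be told apart.

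The enzymes that make adenosine were high in Treg and in the si-Eos-labelled library, and low in naive T cells and in the si-RL-labelled library. Entpd1 had a scaled signal of 1.23 in the si-Eos-labelled library, 0.115 in the si-RL-labelled library, 1.16 in Treg and 0.126 in naive T cells. The si-Eos-labelled library and Treg were far above the others and differed from each other by less than the scanner error (0.08 ± 0.20). The si-RL-labelled library and naive T cells also differed by less than it (-0.13 ± 0.23). The probe lies on chromosome 19 at 40792827 to 40792886 of the mm8 build. A second probe, at 40793834 to 40793893, gave the same split, with 0.425 in the si-Eos-labelled library, 0.0383 in the si-RL-labelled library, 0.456 in Treg and 0.0421 in naive T cells. Which exon or untranslated region the array's probes fall in was not analysed here.

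Nt5e, the next enzyme of the sequence, split the samples in the same way. Its brightest probe (chromosome 9, 88169671 to 88169730, mm8) had a scaled signal of 4.58 in the si-Eos-labelled library, 0.665 in the si-RL-labelled library, 5.23 in Treg and 0.674 in naive T cells. The library labelled si-Eos and Treg differed by -0.19 ± 0.20, and the si-RL-labelled library and naive T cells by -0.02 ± 0.21, both within the scanner error. The second probe aligned across 967 bases of the genome (88167096 to 88168062) and read 0.757 in the si-Eos-labelled library, 0.165 in the si-RL-labelled library, 0.772 in Treg and 0.0977 in naive T cells. On this probe the si-RL-labelled library was above naive T cells, by 0.76 ± 0.24, so the probes disagree on whether these samples were level.

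**Figure D1:**
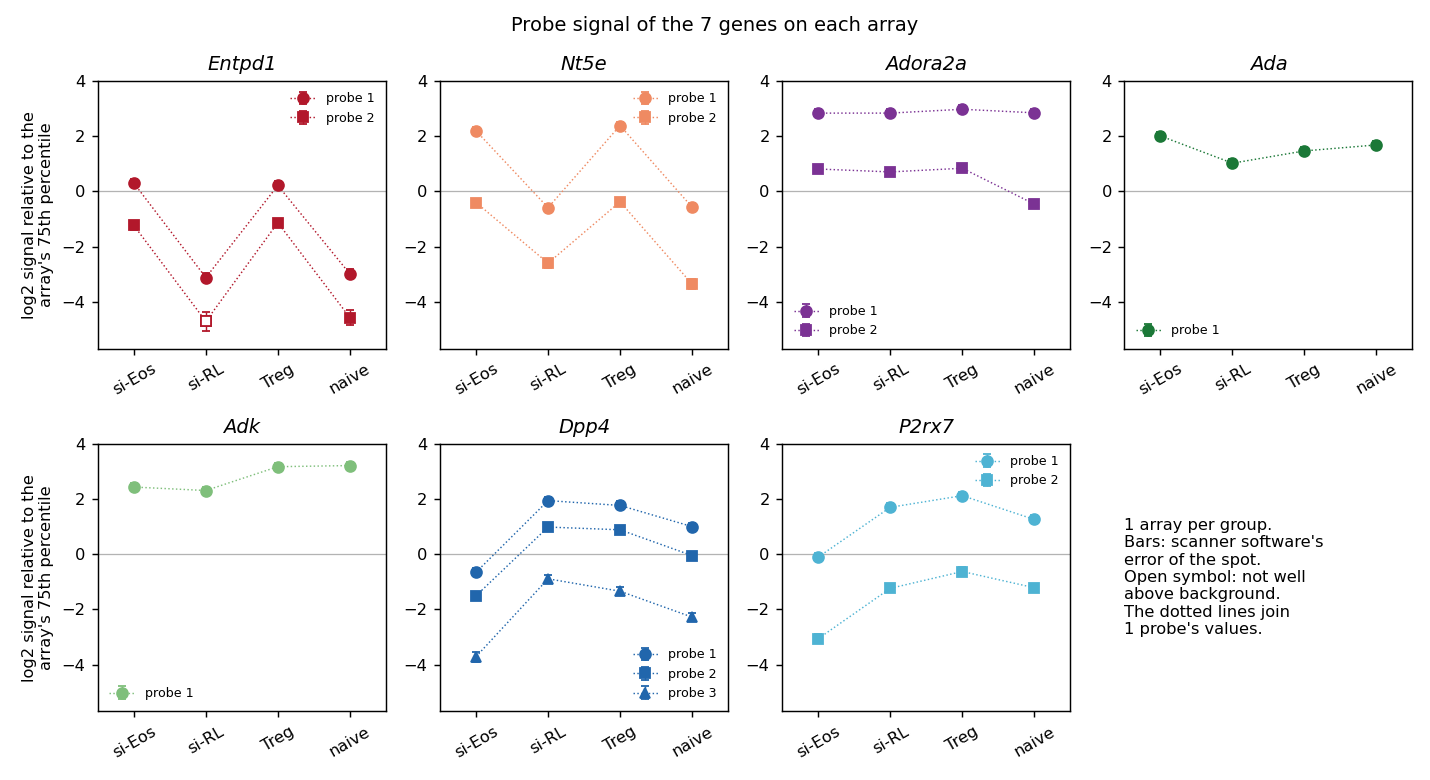
Log2 scaled signal (vertical axis, 0 is the array's 75th percentile) of each probe of the 7 genes on the 4 arrays, from si-Eos on the left to naive on the right, with bars for the scanner software's error and an open symbol where the probe was not well above background. Entpd1 and Nt5e are high in si-Eos and Treg on both probes, Dpp4 and P2rx7 are lowest in si-Eos on all their probes, and Adora2a, Ada and Adk range over less than 1 log2 unit on their brightest probe.

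Because Entpd1 and Nt5e split the samples alike, their promoter sequences are shown, with those of Dpp4 and P2rx7 further on, which shared another pattern. Each is the window from 250 bases before to 50 bases after a transcription start in RefSeq (build GRCm38.p6), 5′ to 3′ on the gene's strand. Capitals mark matches on either strand to the Ikaros family core TGGGAA, the family to which Eos belongs, or to the cAMP response element core TGACG. The forkhead core TGTTTAC, for the family of Foxp3, and the hypoxia response core ACGTG were searched as well, and no 2 matches overlapped. Entpd1 has 2 start sites in this table, at chr19:40612116-40612415 and chr19:40659520-40659819, both on the plus strand, and Nt5e has 1 at chr9:88327359-88327658, plus strand.
Entpd1 start 1: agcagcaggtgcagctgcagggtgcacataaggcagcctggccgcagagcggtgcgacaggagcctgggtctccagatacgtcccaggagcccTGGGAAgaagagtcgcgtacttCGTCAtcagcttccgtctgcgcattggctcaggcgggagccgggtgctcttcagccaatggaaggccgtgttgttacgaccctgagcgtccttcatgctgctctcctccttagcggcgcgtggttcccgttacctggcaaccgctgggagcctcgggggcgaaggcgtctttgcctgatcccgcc
Entpd1 start 2: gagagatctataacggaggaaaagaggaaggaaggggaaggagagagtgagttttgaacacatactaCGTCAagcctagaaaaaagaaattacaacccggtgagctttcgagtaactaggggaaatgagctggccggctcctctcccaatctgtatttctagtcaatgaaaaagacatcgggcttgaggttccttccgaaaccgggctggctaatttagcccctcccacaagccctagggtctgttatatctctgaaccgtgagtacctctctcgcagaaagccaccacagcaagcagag
Nt5e: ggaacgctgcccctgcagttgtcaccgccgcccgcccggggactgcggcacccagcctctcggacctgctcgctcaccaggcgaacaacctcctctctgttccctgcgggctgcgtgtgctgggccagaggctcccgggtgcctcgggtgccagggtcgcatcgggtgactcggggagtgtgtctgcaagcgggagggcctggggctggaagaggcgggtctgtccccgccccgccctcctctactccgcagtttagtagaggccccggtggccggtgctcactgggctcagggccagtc
The first Entpd1 window held TGGGAA, beginning 157 bases before the start, and TGACG on the opposite strand, 135 bases before it. The second held TGACG on the opposite strand, 183 bases before the start. In the Nt5e window none of the 4 motifs occurred. Of all 32851 windows of this length in the table, 25.6% held TGGGAA, 20.8% TGACG, 19.6% ACGTG and 3.65% TGTTTAC. The windows also differed in base composition: G and C made up 64.0% and 48.7% of the Entpd1 windows and 71.0% of the Nt5e window, against a median of 52.7% over all windows.

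Dpp4 and P2rx7 had their lowest level in the si-Eos-labelled library. Dpp4 had a scaled signal of 0.634 in the si-Eos-labelled library, 3.84 in the si-RL-labelled library, 3.397 in Treg and 1.997 in naive T cells (chromosome 2, 62132844 to 62132903, mm8). The library labelled si-RL and Treg differed by 0.18 ± 0.20, within the scanner error, and both lay above naive T cells. The second probe read 0.352 in the si-Eos-labelled library, 1.97 in the si-RL-labelled library, 1.84 in Treg and 0.965 in naive T cells. It overlaps the first on the genome (62132884 to 62132943), so these are not independent sequences. Its remaining probe lies apart, aligned across 62155418 to 62157484, and read 0.0762, 0.538, 0.394 and 0.206 in that order of samples. All 3 probes placed the samples in the same order.

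P2rx7, the ATP-gated channel, had a scaled signal of 0.929 in the si-Eos-labelled library, 3.24 in the si-RL-labelled library, 4.34 in Treg and 2.39 in naive T cells (chromosome 5, 122944802 to 122944861, mm8). Its second probe, aligned across 2886 bases (122931136 to 122934021), read 0.120 in the si-Eos-labelled library, 0.424 in the si-RL-labelled library, 0.646 in Treg and 0.430 in naive T cells. Both probes were highest in Treg and lowest in the si-Eos-labelled library. They disagreed on the middle of the order: the si-RL-labelled library exceeded naive T cells by 0.44 ± 0.20 on the first probe and differed from them by -0.02 ± 0.21 on the second. The RefSeq windows of these genes lie at chr2:62412182-62412481 on the minus strand for Dpp4, and at chr5:122643677-122643976 and chr5:122650133-122650432 on the plus strand for P2rx7.
Dpp4: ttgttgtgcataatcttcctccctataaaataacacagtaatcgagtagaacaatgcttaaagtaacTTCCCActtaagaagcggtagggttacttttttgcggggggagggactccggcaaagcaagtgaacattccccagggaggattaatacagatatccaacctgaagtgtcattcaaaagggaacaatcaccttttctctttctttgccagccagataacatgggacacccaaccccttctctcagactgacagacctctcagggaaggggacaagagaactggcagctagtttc
P2rx7 start 1: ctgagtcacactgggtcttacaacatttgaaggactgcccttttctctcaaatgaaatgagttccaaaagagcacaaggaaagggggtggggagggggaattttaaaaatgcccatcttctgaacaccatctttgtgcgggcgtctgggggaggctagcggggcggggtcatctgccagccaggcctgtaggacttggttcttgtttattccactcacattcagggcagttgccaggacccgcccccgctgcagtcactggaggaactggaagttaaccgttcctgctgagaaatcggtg
P2rx7 start 2: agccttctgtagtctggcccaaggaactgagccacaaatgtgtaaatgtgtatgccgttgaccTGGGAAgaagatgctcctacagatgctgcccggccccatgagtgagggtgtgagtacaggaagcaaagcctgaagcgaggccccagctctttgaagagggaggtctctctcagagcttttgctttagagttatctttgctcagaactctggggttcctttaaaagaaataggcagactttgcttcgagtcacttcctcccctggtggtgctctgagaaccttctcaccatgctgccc
The Dpp4 window held TGGGAA on the opposite strand, beginning 183 bases before the start. The second P2rx7 window held TGGGAA 187 bases before the start, and the first held none of the 4 motifs. G and C made up 45.3% of the Dpp4 window and 53.3% and 51.7% of the P2rx7 windows. A match is a run of letters, and no data used here bear on binding to it.

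The receptor and the enzymes that remove adenosine varied less. Adora2a had a scaled signal of 7.15 in the si-Eos-labelled library, 7.15 in the si-RL-labelled library, 7.87 in Treg and 7.20 in naive T cells (chromosome 10, 74776943 to 74777002, mm8). No pair of samples on this probe differed by more than the scanner error. Its second probe, at 74778322 to 74778382, read 1.76 in the si-Eos-labelled library, 1.63 in the si-RL-labelled library, 1.79 in Treg and 0.728 in naive T cells. Here naive T cells were lowest, with Treg above them by 1.30 ± 0.20, so the probes disagree on how naive T cells compare with the other samples.

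Ada was measured by 1 probe (chromosome 2, 163418286 to 163418345, mm8), which read 4.03 in the si-Eos-labelled library, 2.03 in the si-RL-labelled library, 2.77 in Treg and 3.22 in naive T cells. Every neighbouring pair in the order of its levels was further apart than the scanner error, though Treg and naive T cells only just (-0.22 ± 0.20). Adk was also measured by 1 probe (chromosome 14, 20236965 to 20237024, mm8), which read 5.39 in the si-Eos-labelled library, 4.94 in the si-RL-labelled library, 8.99 in Treg and 9.25 in naive T cells. Both transduced samples were below both untransduced ones. Within these pairs the difference was under the scanner error, at 0.13 ± 0.20 between the hairpin libraries and -0.04 ± 0.20 between Treg and naive T cells.

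The comparison of Treg with naive T cells asks which of the pathway genes differ between these T cell types. The enzymes that make adenosine were the ones far apart: Entpd1 was 9.21-fold higher in Treg (3.20 ± 0.22) and Nt5e 7.76-fold higher (2.96 ± 0.20). They stood at ranks 91 and 116 among all genes ordered by this difference. Of the 7 genes, these 2 were at least 2-fold higher and none was 2-fold lower, where 5.52% of the 17601 genes measured on both arrays were so higher and 2.04% lower. P2rx7 (0.86 ± 0.20) and Dpp4 (0.77 ± 0.20) were higher in Treg by less than 2-fold. With spike-in scaling these stood at 1.14 and 1.04, past 2-fold, while the median of all genes moved by 0.28. Genes so higher and lower then numbered 1468 and 199, and 772 and 627 with median scaling, against 972 and 359 as reported. The normexp background correction put Entpd1 at 1.63 and Nt5e at 2.11. Naive T cells were gated for high CD62L and no CD62L gate is given for Treg, so cell type and activation state cannot be told apart. B cell markers were also higher in Treg, as given above, and B cells are known to carry CD39, but their part in the Entpd1 difference was not tested. Entpd1 was level between the si-Eos-labelled library and Treg, where the B cell sums were 2.24 and 7.35.

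The comparison of the hairpin libraries asks what differs when the Eos hairpin takes the place of the control hairpin. As labelled, the enzymes that make adenosine were higher in the si-Eos-labelled library, and the ATP-gated channel and the surface peptidase were lower. Of the 7 genes, 2 were at least 2-fold higher and 2 lower, where 10.7% of 17089 measured genes were so higher and 10.1% lower. Entpd1 was 10.7-fold higher (3.42 ± 0.22) and Nt5e 6.88-fold higher (2.78 ± 0.21), with 3.47 ± 0.37 and 2.20 ± 0.22 on the second probes. The ranks of Entpd1 and Nt5e among all genes were 108 and 207. Dpp4 was 6.05-fold lower (-2.60 ± 0.20), with -2.49 ± 0.21 and -2.82 ± 0.23 on its other probes. P2rx7 was 3.49-fold lower (-1.80 ± 0.20), with -1.82 ± 0.22 on its second probe. Ada lay just under 2-fold, at 1.98-fold higher (0.99 ± 0.20, and 0.92 to 1.05 over the alternative settings), and Adk (0.13 ± 0.20) and Adora2a (0.00 ± 0.20) did not differ by more than the scanner error.

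With normexp background correction Entpd1 stood at 2.14 between the hairpin libraries, still past 2-fold. Markers of T cell states moved with these differences. Of 6 Treg markers, 5 were at least 2-fold higher in the si-Eos-labelled library and none was lower (median 2.41). Of 6 naive T cell markers, 4 were lower by 2-fold or more and 1 was higher (median -2.45). The naive markers furthest apart were S1pr1, a receptor for lymphocyte exit (-6.41 ± 0.21), and the transcription factor genes Tcf7 (-4.53 ± 0.20) and Lef1 (-2.88 ± 0.20), and Ccr7 was the higher (1.49 ± 0.20). The sum of CD8 T and NK cell markers also moved with them, at 53.9 in the si-Eos-labelled library and 3.98 in the si-RL-labelled library. It did so through Nkg7, while Klrd1, an NK cell receptor gene, read 0.865 in the si-Eos-labelled library and 0.879 in the si-RL-labelled library. Cd8a read 0.0923 in the si-Eos-labelled library and 0.0708 in the si-RL-labelled library, and the part of other cell types and cell states in the result was not tested.

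**Figure D2:**
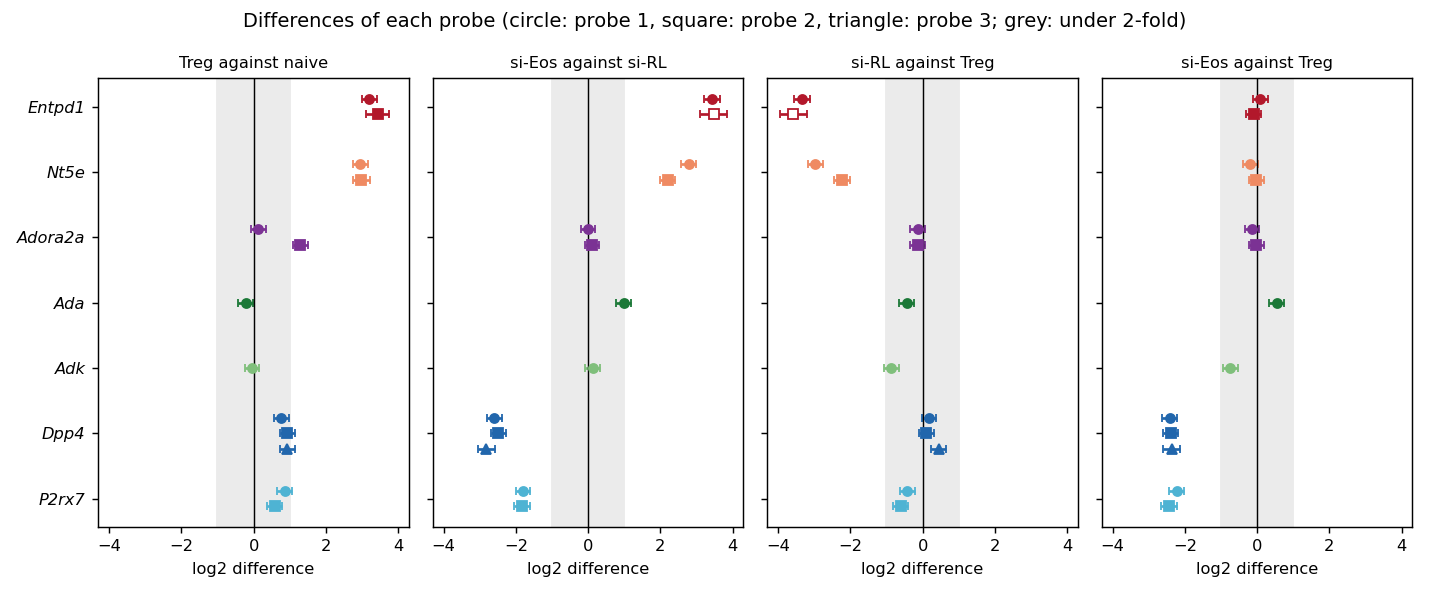
Log2 difference (horizontal axis) of each probe of the 7 genes in the 4 comparisons, with bars for the combined scanner error, grey for differences under 2-fold and an open symbol where the probe was not well above background on both arrays. The probes of 1 gene lie on the same side of the 2-fold lines except for Adora2a in Treg against naive, with 0.13 and 1.30.

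Both hairpin libraries were then set against untransduced Treg, from which they differ in transduction, culture, the sort and the hairpin carried. These comparisons share the Treg array, so their values are given side by side. The library labelled si-Eos had 2 of the 7 genes at least 2-fold lower than Treg and none higher, where 10% of 17902 measured genes were lower and 8.85% higher. The 2 were Dpp4 (-2.42 ± 0.20, or 5.35-fold lower) and P2rx7 (-2.23 ± 0.20, or 4.68-fold lower). In the si-RL-labelled library, too, 2 of the 7 were at least 2-fold lower than in Treg and none was higher, where 8.22% of 17092 measured genes were lower and 7.89% higher. Those were Entpd1 (-3.34 ± 0.22, or 10.1-fold lower) and Nt5e (-2.98 ± 0.21, or 7.86-fold lower), and normexp put them at -1.95 and -2.19. It put Dpp4 at -1.71 and P2rx7 at -1.57 in the si-Eos-labelled library. Dpp4 (0.18 ± 0.20) and P2rx7 (-0.42 ± 0.20) were within 2-fold of Treg there, as were Entpd1 and Nt5e in the si-Eos-labelled library. These 4 small differences changed sign with the settings, over -0.23 to 0.63, -0.83 to 0.07, -0.25 to 0.20 and -0.53 to 0.23 for Dpp4, P2rx7, Entpd1 and Nt5e. Adk was below Treg by less than 2-fold in both, at -0.74 ± 0.20 in the si-Eos-labelled library and -0.86 ± 0.20 in the si-RL-labelled library, and passed 2-fold in both under spike-in scaling (-1.07 and -1.27). That scaling moved the median of all genes by -0.34 and -0.40. It gave 901 genes higher and 2874 lower in the si-Eos-labelled library, against 1584 and 1797 as reported, and 628 higher and 3129 lower in the si-RL-labelled library, against 1349 and 1405. Transduction, culture, the sort and the target of the hairpin cannot be told apart in these comparisons with Treg.

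**Figure D3:**
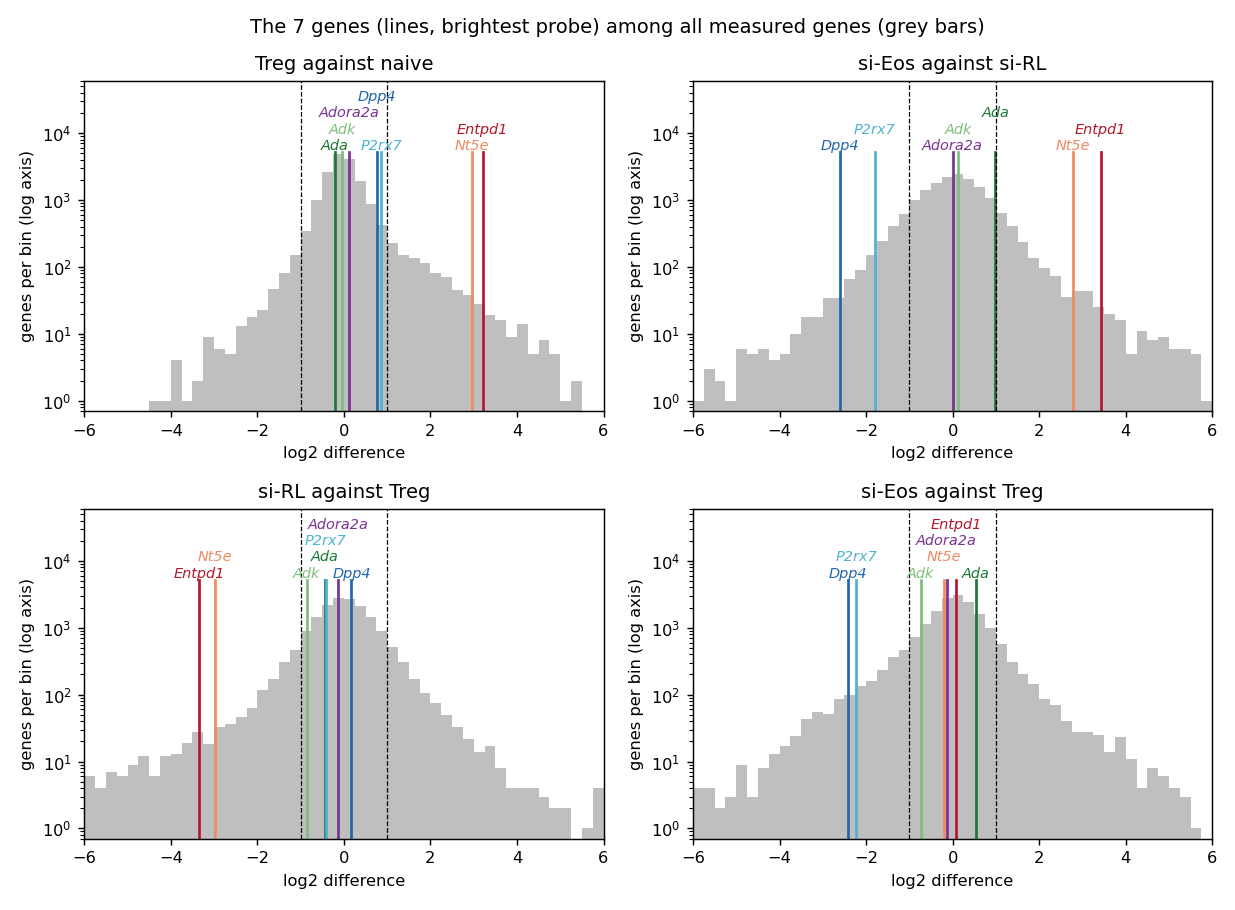
Number of genes (vertical log axis) per bin of 0.25 in log2 difference (horizontal axis) for all genes measured in each of the 4 comparisons, with coloured lines at the brightest probes of the 7 genes and dashed lines at 2-fold. Entpd1 and Nt5e lie in the upper tail for Treg against naive and for si-Eos against si-RL and in the lower tail for si-RL against Treg, and Dpp4 and P2rx7 lie in the lower tail for si-Eos against si-RL and si-Eos against Treg.

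Treg and naive T cells share no array with the hairpin libraries, so the places of the 7 genes in both comparisons were set against those of all genes. Of 16456 genes well above background on all 4 arrays, 903 were at least 2-fold higher in Treg than in naive cells. Of these, 393 (43.5%) were also at least 2-fold higher in the si-Eos-labelled library than in the si-RL-labelled library, as Entpd1 and Nt5e were, and 47 (5.20%) were at least 2-fold lower there. Dpp4 and P2rx7 were at least 2-fold lower in the si-Eos-labelled library and missed the 2-fold line in Treg against naive T cells.

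**Figure D4:**
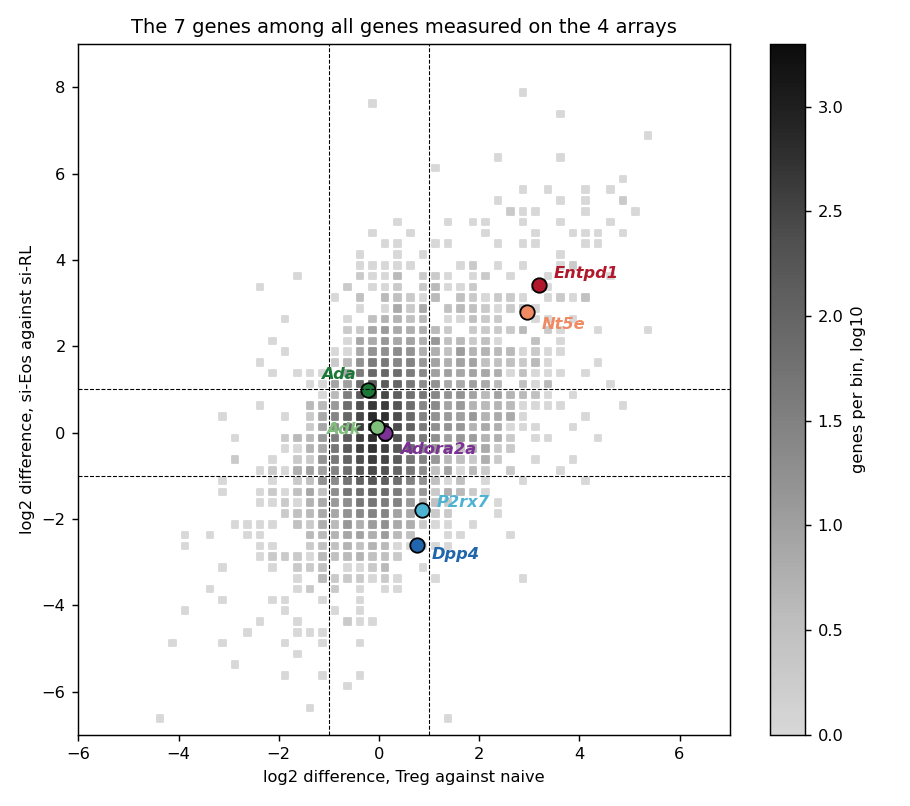
Log2 difference of Treg against naive (horizontal axis) and of si-Eos against si-RL (vertical axis) for 16456 genes, as squares shaded by the number of genes in a bin of 0.25, with the 7 genes as coloured points and dashed lines at 2-fold. Entpd1 and Nt5e lie in the upper right, Dpp4 and P2rx7 lie below the lower line and between the vertical lines, Adk and Adora2a lie near the centre and Ada lies at the upper line.

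The genes with the most similar pattern over the 4 arrays were found by the root mean square distance between log2 levels, each centred on its own mean, among the same 16456 genes. Nearest to Entpd1 were Il1rl1, which encodes the IL-33 receptor ST2 (distance 0.22), Kcnf1, a potassium channel subunit (0.23), and Serpinb1a, a protease inhibitor (0.24). Nt5e stood at rank 5 from Entpd1, at 0.25. Nearest to Nt5e were Serpinb1a (0.10), the NAD-consuming ectoenzyme Cd38 (0.13) and Alpl, the tissue-nonspecific alkaline phosphatase, which can also remove phosphate from extracellular AMP (0.14). Nearest to Dpp4 were the chemokine receptor Ccr9 (0.15), Hal, histidine ammonia-lyase (0.18), and 1 transcript without a gene symbol, with P2rx7 at rank 14 (0.29). Of the 3 genes nearest to P2rx7, the one with a plain symbol was Plxnc1, a semaphorin receptor (0.16), and Dpp4 stood at rank 52. Adora2a, Ada and Adk ranged over less than 1 log2 unit and were given no neighbours.

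The rest of the pathway was described from 11 gene lists with 126 genes, of which 121 were on the array. Among 20 ectonucleotidases and other nucleotide phosphatases, Alpl was at least 2-fold higher both in Treg than in naive cells (2.77 ± 0.22) and in the si-Eos-labelled library than in the si-RL-labelled library (2.43 ± 0.23). Its scaled signal was 0.574 in the si-Eos-labelled library, 0.106 in the si-RL-labelled library, 0.707 in Treg and 0.104 in naive T cells. Entpd5, an ectonucleotidase relative found in the endoplasmic reticulum, read 0.555 in the si-Eos-labelled library, 4.14 in the si-RL-labelled library, 1.67 in Treg and 3.45 in naive T cells. Its difference between the hairpin libraries was -2.90 ± 0.20. Of 16 measured members of the list, 2 were at least 2-fold higher and 2 lower between the hairpin libraries, where 10.7% and 10.1% of all genes were, so the share is near the background. The median was 0.14 where that of all genes was 0.04. Normexp put Alpl at 1.36 for Treg against naive T cells and at 1.33 between the hairpin libraries. Entpd4 counts among the lower ones (-1.53 ± 0.20), though a second probe gave 0.54 and the mean of probes gave -0.49.

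Of 3 measured enzymes that use extracellular NAD, 1 was higher and 2 lower in the si-Eos-labelled library than in the si-RL-labelled library, and with normexp or no background correction none was 2-fold apart. Cd38 had a scaled signal of 0.300 in the si-Eos-labelled library, 0.0551 in the si-RL-labelled library, 0.356 in Treg and 0.0454 in naive T cells. Its difference between the hairpin libraries was 2.45 ± 0.30, and 0.86 with normexp and 0.89 without background correction. Bst1, its relative CD157, was well above background in the si-Eos-labelled library (0.287) and in Treg (0.194) and not in the others. With the dim array set to a floor level, it was about 15.6-fold higher in Treg than in naive cells. On the same rule it was about 18.3-fold higher in the si-Eos-labelled library than in the si-RL-labelled library. Such folds are rough and not strict limits. The mouse ADP-ribosyltransferases Art2a and Art2b, which can open P2RX7 on T cells when NAD is released, were both highest in Treg. Art2b read 0.0307 in the si-Eos-labelled library, 0.108 in the si-RL-labelled library and 0.241 in Treg, a difference of -2.97 ± 0.34 for the si-Eos-labelled library against Treg and -1.16 ± 0.23 for the si-RL-labelled library against Treg. Without background correction these were -0.98 and -0.34, under 2-fold. Art2a was 0.127 in Treg and not well above background in either hairpin library. It was about 7.46-fold lower in the si-Eos-labelled library and about 3.56-fold lower in the si-RL-labelled library. These are close paralogs, and how far their probes tell them apart was not tested.

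Among the other receptors for adenosine and nucleotides, Adora2b, the low-affinity adenosine receptor that also raises cAMP, was well above background in the si-Eos-labelled library alone, at 0.432. With the dim array set to a floor level, it was about 26.7-fold higher there than in the si-RL-labelled library and about 24.8-fold higher than in Treg. Adora3 was higher in the si-Eos-labelled library than in Treg, by 1.21 ± 0.30. That difference fell under 2-fold with spike-in scaling (0.87) and without background correction (0.54), and its sign turned with normexp (-1.27). P2ry1, an ADP receptor, read 0.851 in the si-Eos-labelled library, 0.164 in the si-RL-labelled library and 0.0853 in Treg. The difference was 3.32 ± 0.23 for the si-Eos-labelled library against Treg, and 0.57 with normexp. Between the hairpin libraries P2ry1 was higher in the si-Eos-labelled library by 2.37, and by 1.45 to 2.44 over the 9 alternative settings. P2ry14, a receptor for UDP-sugars, was higher in the si-RL-labelled library than in Treg by 1.40 ± 0.23. It was under 2-fold with spike-in scaling (0.99) and without background correction (0.91), and -0.66 with normexp. Of 6 other P2X receptors, 3 were measured on both hairpin arrays, and P2rx2 was at least 2-fold higher in the si-Eos-labelled library (1.29 ± 0.21). Between Treg and naive T cells, none of the measured genes of the adenosine, P2X and P2Y receptor lists was 2-fold apart. P2ry4, above background in Treg alone, was about 2.45-fold higher there.

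Of all 11 lists, purine synthesis had the most genes apart between the hairpin libraries. Of its 13 genes, 7 were higher by 2-fold or more in the si-Eos-labelled library and none was lower, with a median of 1.16 where all genes had 0.04 and 10.7% of genes were so higher. Over the 9 alternative settings the count lay between 5 and 8 and the median between 0.99 and 1.22. Gart, a multifunctional enzyme of the early steps, differed by 2.04 ± 0.20, and its second probe gave 0.84. Adssl1 and Adsl, which act on the way to AMP, differed by 1.55 ± 0.20 and 1.53 ± 0.20, and Impdh2, of guanine nucleotide synthesis, by 1.49 ± 0.20. None of the 13 was 2-fold apart between Treg and naive T cells (median -0.02, and -0.24 to 0.25 over the settings). Against Treg, 2 were at least 2-fold higher in the si-Eos-labelled library, where 8.85% of genes were, and 3 were lower in the si-RL-labelled library, where 8.22% were, Gart the furthest at -1.75 ± 0.21.

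Salvage, breakdown and transport held single genes apart, and the salvage and breakdown genes had no common direction. Of 6 measured nucleoside transporters, 1 was at least 2-fold higher and none lower between the hairpin libraries, where 10.7% and 10.1% of all genes were. Their median was 0.57 (0.05 to 0.64 over the settings), where that of all genes was 0.04. Slc29a1, the equilibrative transporter that carries adenosine across the membrane, read 3.68 in the si-Eos-labelled library, 1.08 in the si-RL-labelled library and 3.82 in Treg. It was higher in the si-Eos-labelled library than in the si-RL-labelled library by 1.77 ± 0.20. Ahcy, which splits S-adenosylhomocysteine to release adenosine, was higher by 1.55 ± 0.20 in the same comparison. Ampd1, an AMP deaminase, differed by -2.27 ± 0.21 for Treg against naive T cells and by -2.17 ± 0.23 for the si-Eos-labelled library against Treg. For the si-RL-labelled library against Treg the Ampd1 difference was -1.32, and -0.68 without background correction. Xdh, which makes uric acid, was higher in Treg than in naive cells by 1.55 ± 0.23, and by 0.69 without background correction. Of 15 measured genes of salvage and breakdown, 2 were at least 2-fold higher and 1 lower in Treg against naive T cells, where 5.52% and 2.04% of all genes were. The counts were likewise 2 and 1 between the hairpin libraries, near the background of 10.7% and 10.1%.

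Among cAMP signalling genes, downstream of the receptor that Adora2a encodes, Rapgef4 and Crem were furthest apart. Rapgef4, the cAMP sensor EPAC2, had a scaled signal of 2.52 in the si-RL-labelled library, 0.536 in Treg and 4.41 in naive T cells and was not well above background in the si-Eos-labelled library. It differed by -3.04 ± 0.20 for Treg against naive T cells. In the si-Eos-labelled library it was about 110-fold lower than in the si-RL-labelled library. Crem, a transcription factor gene that cAMP is known to induce, read 16.9 in the si-Eos-labelled library, 5.12 in the si-RL-labelled library and 1.15 in Treg. Its difference from Treg was 3.88 ± 0.20 in the si-Eos-labelled library, with other probes from -0.46 to 4.10, and 2.15 ± 0.20 in the si-RL-labelled library, with other probes from 0.75 to 2.31. Of 19 measured genes of the list, 2 were at least 2-fold higher and 2 lower between the hairpin libraries (median -0.19), near the background of 10.7% and 10.1%. Gnas, the stimulatory G protein subunit, was one of the higher (1.64 ± 0.20), with other probes from -0.64 to 1.61 and -0.07 both with normexp and without background correction.

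Along the route through P2RX7, Casp1, the protease that matures IL-1β and IL-18, read 1.09 in the si-Eos-labelled library, 0.829 in the si-RL-labelled library, 4.82 in Treg and 1.49 in naive T cells. It was highest in Treg, by 1.69 ± 0.20 over naive T cells, and differed from Treg by -2.15 ± 0.20 in the si-Eos-labelled library and -2.54 ± 0.20 in the si-RL-labelled library. Il18 was likewise higher in Treg than in naive cells (1.07 ± 0.24, and 0.35 to 1.35 over the settings), with a difference of -1.50 ± 0.27 for the si-RL-labelled library against Treg that was -0.33 without background correction. Of the 6 measured dipeptidyl peptidase family genes other than Dpp4, none was 2-fold apart in any of the 4 comparisons, with a median of 0.18 between the hairpin libraries that ran from -0.02 to 0.24 over the settings. The family's Fap was above background in Treg alone. It was about 2.02-fold lower in the si-Eos-labelled library and about 2.92-fold lower in the si-RL-labelled library than in Treg.

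**Figure D5:**
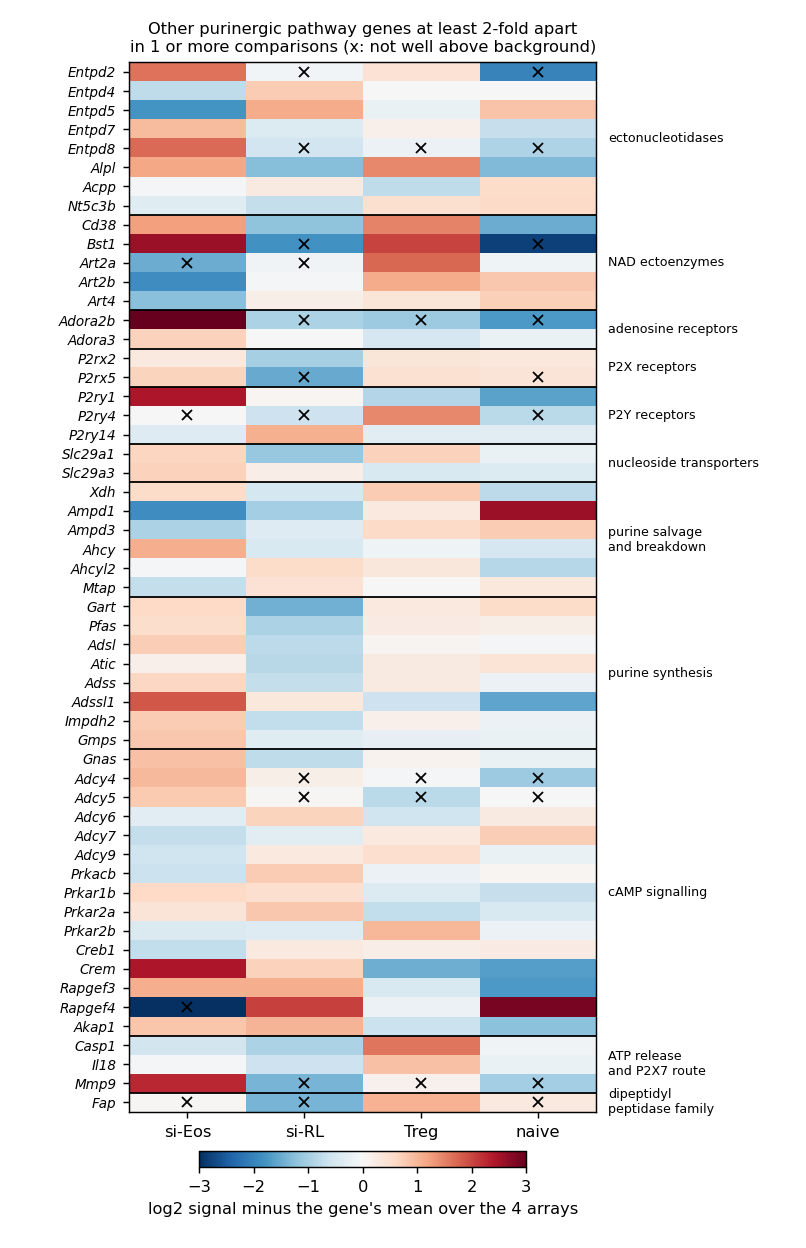
Log2 signal minus each gene's mean over the 4 arrays (colour, red high and blue low) for 55 other pathway genes at least 2-fold apart in 1 or more comparisons, in rows grouped by list, with columns from si-Eos on the left to naive on the right and a cross where the gene was not well above background. Alpl, Cd38 and Bst1 are red in si-Eos and Treg and blue in si-RL and naive, and si-Eos exceeded si-RL by 2-fold or more in 7 of the 13 purine synthesis genes.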

How the data were processed

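RNA of the 4 samples was amplified linearly and labelled with Cy3, per the labels' protocols. What the authors deposited as scanner files is spot intensity on a linear scale, extracted with Agilent Feature Extraction 9.5.3.1, with background subtraction, spatial detrending and no normalization across arrays, per the file headers. Probe positions there are on mouse build mm8, and 1 slide and 1 scan held all 4 arrays. The deposited series value table held the same processed intensity: 100% of spots agreed within 0.5%. It was linear and not centred, with column medians of 38.5 (si-Eos), 31.5 (si-RL), 50.5 (Treg) and 33.2 (naive).

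Each processed intensity was divided by the 75th percentile of its array's non-control probes and put on a log2 scale. Flagged spots were left out (71 to 94 of 43379 per array), spots of 1 probe were averaged, and no spot was saturated. Names came from a RefSeq table (GRCm38.p6) by accession for 24372 probes, by current symbol for 6301 and by a single synonym for 2426, and 8070 kept the name in the file. Each gene was represented by its brightest probe and counted where its level was 2-fold or more apart with both spots well above background. A gene above background on 1 array of a pair alone has an approximate fold ("about N-fold"). For it the dim side is set to that array's lowest level above background, or to the probe's own level where that is higher. This floor is not a strict limit. In the si-RL-labelled library the lowest signal well above background was 4.11 units, while the second Entpd1 probe, at 10.0 units, was not well above it. With 1 array per group no test was run, and the number of arrays limits the precision. The counting step was tested on simulated data.

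The members, the 11 pathway lists and the marker lists were chosen with earlier results of these data known. The rule named all 7 members, Ikzf4 and Foxp3, up to 4 genes per list and comparison with the largest differences past 2-fold, and the 3 nearest patterns of each member. The text leaves some of these out, and marker genes were named for their values. The 9 alternatives were median, quantile and spike-in scaling, the percentile over detected probes, normexp background correction with limma 3.58.1, no background correction, the mean of probes, no filter on dim probes, and flagged spots kept. Python 3.11.15 and R 4.3.3 were used. Promoter windows came from RefSeq (GRCm38.p6), in which 6 of the 7 genes were matched.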

Additional observations from a re-analysis of the deposited data

Results flagged for a closer look

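Ada went opposite ways in the hairpin libraries relative to untransduced Treg. Its log2 difference from Treg was 0.54 ± 0.20 in the si-Eos-labelled library and -0.45 ± 0.20 in the si-RL-labelled library, each beyond the scanner error and under 2-fold. Both values share the Treg array and each group has 1 array, so the difference between the libraries was not tested. Over the 9 alternative settings the value for the si-Eos-labelled library ran from 0.20 to 0.78 and that for the si-RL-labelled library from -0.85 to -0.14, with no change of sign.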

How the results depend on the processing

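All 10 member differences past 2-fold kept their sign and stayed past 2-fold under all 9 alternatives. Of 252 recomputed member differences, 192 moved by less than the scanner error. Of 82 pathway gene differences past 2-fold outside the members, 32 stayed past it under all 9, and 10 changed sign under 1 or more. Entpd1 in Treg against naive T cells, at 3.20, lay between 1.63 (normexp) and 3.48 (spike-in scaling). Members at least 2-fold higher in Treg than in naive cells numbered 4 with spike-in scaling. No paired analysis was possible because each group has 1 array, and no replicate could be left out.

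Counts over all genes depended more on the settings. For Treg against naive T cells, genes higher numbered 1468 with spike-in scaling, 1893 with normexp, 528 without background correction and 2141 without the filter on dim probes, and genes lower 627 with median scaling, 199 with spike-in scaling, 200 without background correction and 982 without the filter. Between the hairpin libraries, genes higher in the si-Eos-labelled library numbered 1138, 1161 and 3570, and genes lower 832, 846 and 2863, with normexp, without background correction and without the filter. In the si-RL-labelled library against Treg, genes higher numbered 628 with spike-in scaling, 725 without background correction and 2581 without the filter, and genes lower 3129 with spike-in scaling, 4472 with normexp, 813 without background correction and 2806 without the filter. In the si-Eos-labelled library against Treg, genes higher numbered 901 with spike-in scaling, 946 without background correction and 3019 without the filter, and genes lower 2874 with spike-in scaling, 5864 with normexp, 1011 without background correction and 2789 without the filter. The cause was not tested, apart from the filter, whose removal adds genes. Dim probes set the limit: where 1 array is not well above background, only an approximate fold is had.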
